A study of Homo sapiens with 24 samples.

Results

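Antisense long noncoding RNAs were examined in U251 cells, an established human glioblastoma line, exposed to G-1, an agonist of the G-protein-coupled estrogen receptor GPER. The set was defined by 2 conditions. The RefSeq transcript of the probe carried a symbol ending in -AS or -AS with a number, and its spot exceeded background clearly on every one of the 4 arrays in 1 or more of the 6 groups. Of 58201 probes and 24847 gene symbols on the array, 628 probes of 443 antisense genes met both. Another 1433 probes with an antisense symbol did not, and 1201 of those were above background on none of the 24 arrays. The signal thus chose the members. At the edge of the rule, 55 excluded probes reached 3 arrays of a group, and the member seen least often was above background on 5 of 24 arrays.

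The groups were vehicle (DMSO) for 24 h, DMSO for 72 h, G-1 at its IC50 during 24 h, the same dose during 72 h, 1 µM G-1 for 24 h and 1 µM G-1 for 72 h, each with 4 samples that the labels call independent. All groups, controls included, had been kept in charcoal-stripped serum to remove steroid hormones before exposure. Total RNA was labelled with Cy3 and hybridised to one-colour Agilent arrays. The design asks whether each dose changed expression relative to the vehicle of the same duration, and whether the change at 1 µM differed between durations. Durations follow the sample titles, because another label field gives the opposite duration for the IC50 24 h and the 1 µM 72 h samples. U251 is a single line, so the results describe that line only.

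An antisense RNA is transcribed from the strand opposite a protein-coding gene, and its symbol is that of the sense gene plus a suffix. Many start close to the start of the sense gene and share a bidirectional promoter region with it, while others overlap the body or the end of the gene. Some are known to influence the sense gene in cis, and many are short-lived nuclear transcripts that the RNA exosome degrades.

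The arrays lay on 3 slides. All 8 arrays of 1 µM G-1 were on slide 3 and scanned in a later session than slides 1 and 2, which held the DMSO and IC50 arrays. Any change at 1 µM G-1 against DMSO and an effect of slide or session thus cannot be told apart. On the 1 µM arrays 38.0 to 40.7% of spots were well above background, against 41.1 to 44.5% on the others. Among the members 72.4 to 86.9% were above background on each 1 µM array and 92.5 to 99.4% on each of the other 16. Members were admitted by detection, 142 through no 1 µM group and 5 through 1 µM groups only. Part of this gap was thus built into their selection, and it cannot be set against that of all spots. Of 8 markers of astroglial and glioma cells, 7 were above background on all arrays (VIM, GFAP, NES, CD44, S100B, SOX9 and FABP7) and AQP4 on none. No endothelial marker, 1 of 5 microglial markers (CSF1R) and 1 of 5 oligodendrocyte markers (MBP) were detected on all arrays, whereas 4 of 6 neuronal markers were (RBFOX3, SNAP25, SYT1 and GAD1). In bulk RNA, fewer cells with a transcript and less of it per cell cannot be told apart.

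Of the 628 probes, 413 (65.8%) were above background on all 24 arrays, compared with 83.3% of all tested probes. The number above background on all 4 arrays was 571 in DMSO 24 h, 554 in DMSO 72 h, 586 in IC50 24 h and 582 in IC50 72 h. It was 465 in 1 µM 24 h and 440 in 1 µM 72 h. At 1 µM for 72 h 64 members were above background on no array, against 7 in DMSO 72 h. Of all members, 142 entered the set through no 1 µM group and 5 through 1 µM groups only. RefSeq classes 619 of the probes as lncRNA and 9 as antisense RNA, and no member was saturated. A value on every array, which the test needed, was available for 626 probes of 442 genes.

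Values are log2 signals, each set against the 75th percentile of its own array. They compare one probe between samples and do not compare the amounts of different RNAs. Differences are log2 with the standard error of a linear model over all 22970 tested probes (limma). A call required a change of more than 2-fold together with an adjusted p below 0.05. Where a probe was above background on none of the 4 arrays of the dimmer group, the change is a lower bound and is written as "at least N-fold". Calls used the measured signals, so a bound can lie below 2-fold.

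At the IC50 dose the antisense RNAs changed little. After 24 h 1 of 626 members was called higher, against 10 of all tested probes (0.0435%), and none was called lower. The member was IDI2-AS1 (chromosome 10, 1022637 to 1044201, GRCh38.p14), named after the gene of an isopentenyl diphosphate isomerase of isoprenoid synthesis. Its signals were −3.14, −2.80, −2.27 and −3.06 in IC50 24 h and −3.62, −4.40, −4.81 and −5.19 in DMSO 24 h. The groups did not overlap. It was above background on all 4 IC50 arrays and on no DMSO array, so it was at least 1.41-fold higher (adjusted p = 0.0483). It entered the set only through this group, so a difference from DMSO was built into its selection. The call was lost when any of the IC50 arrays, or DMSO 24 h replicate 2, 3 or 4, was left out.

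DEPDC1-AS1, named after a gene of mitotic progression, was the other probe above background on all 4 IC50 24 h arrays and on no DMSO 24 h array, and is named here after its values were seen. Its signals ranged from −2.49 to −1.68 at IC50 and from −4.99 to −3.28 in DMSO, and the difference did not pass the test (adjusted p = 0.135). After 72 h at the IC50 dose no member was called, against 0.0479% of all tested probes in each direction. Members with an unadjusted limma p under 0.05 numbered 60 at 72 h, which was 9.58% of them, against 8.99% of all tested probes, and the methods' t-test with the 2-fold limit called 0. Without the fold limit 3 were higher (FEZF1-AS1 by 0.71, RAB11B-AS1 by 0.61 and SOCS2-AS1 by 0.50 log2) and 3 lower (RARA-AS1 by −0.87, VLDLR-AS1 by −0.48 and HIF1A-AS1 by −0.32 log2), against 0.313% and 0.361% of all tested probes. The 72 h and 24 h DMSO groups differed by more than 2-fold in no member (0.0566% and 0.0914% of all tested probes were called higher and lower). There, 127 members (20.3%) had an unadjusted limma p under 0.05, against 17.5% of all tested probes. The methods' t-test without adjustment called 1 member, against 57 of all tested probes.

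At 1 µM for 24 h, 4 members were called higher and 16 lower, which was 0.639% and 2.56% of the members. Over all tested probes the shares were 0.596% and 2.05%. Among the 413 members above background on every array 1 was called higher and 2 lower, against 0.423% and 0.575% of all probes detected as widely. The median change of the members was −0.15 log2, or −0.11 with members below background on all 1 µM arrays set to their bound, and that of all tested probes was close to 0.

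The 4 members called higher were DEPDC1-AS1, PSMD6-AS2, SPRY4-AS1 and IDI2-AS1, and all 4 were also called higher at 72 h. PSMD6-AS2, opposite a subunit gene of the proteasome cap, had signals of −0.69, −0.74, −0.63 and −1.28 at 1 µM and −1.99, −1.84, −2.51 and −2.39 in DMSO. It was detected on all arrays of both groups, which did not overlap, and its change was 1.35 log2 (SE 0.18, adjusted p = 3.4e-05). SPRY4-AS1 was called (adjusted p = 0.0121) with signals below background on all 8 arrays of this comparison, as was IDI2-AS1, so no size is given for either. DEPDC1-AS1 was at least 1.97-fold higher (adjusted p = 0.00591), and 2 of its 4 arrays at 1 µM were above background, but none of the 8 arrays at 72 h was.

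Of the 16 called lower, 10 were above background on no 1 µM 24 h array and 3 on all 4. They included CADM1-AS1, named after a cell adhesion gene, which was at least 1.37-fold lower (adjusted p = 0.00012), and GRTP1-AS1, at least 1.33-fold lower (adjusted p = 0.00078). HORMAD2-AS1, ZFPM1-AS1, ARHGEF17-AS1, IL6R-AS1 and ERCC6L2-AS1 were lower by at least 1.04-fold to 1.48-fold, with adjusted p between 0.00141 and 0.0149. SPATA3-AS1 had no bound above 1-fold (adjusted p = 0.00906). ERCC6L2-AS1 was called by 1 of its 4 probes, and the other 3 differed from DMSO by −0.27 to 0.09 log2. All of these named members were below background on every 1 µM 24 h array. They entered the set through other groups, so a brighter signal elsewhere was built into their selection.

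At 1 µM for 72 h the antisense RNAs shifted downward. Of 626 members 24 (3.83%) were called higher and 114 (18.2%) lower, while 5.08% and 8.55% of all tested probes were. The calls fell on 19 genes that were higher and 100 that were lower. The median change was −0.35 log2 over the members, or −0.26 with bounds, and close to 0 over all tested probes. Of the 114 lower members 38 were above background on no 1 µM 72 h array and 56 on all 4. Those 38 entered the set through other groups, so a brighter signal elsewhere was built into their selection. Among members detected on all 24 arrays 12 (2.91%) were called higher and 56 (13.6%) lower, against 4.46% and 5.21% of all probes detected as widely.

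The size of these counts depended on the processing. With the normexp correction, 8 members (1.28%) were called higher and 22 (3.51%) lower, against 1.83% and 2.66% of all tested probes. That setting took raw median signals, added an offset of 50 and used quantile normalization. Quantile normalization alone gave 26 higher and 106 lower, against 5.19% and 8.37% of all tested probes. The correction and the offset were not tested apart. In the main fit without the fold limit, 108 members were higher and 312 (49.8%) lower at an adjusted p under 0.05. Of all tested probes, 32.6% and 31.8% were.

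Other classes of noncoding transcripts gave the following shares at 1 µM for 72 h. Of 373 tested probes for intergenic transcripts with LINC symbols 5.90% were called higher and 18.2% lower, and of 190 for divergent transcripts (-DT) 3.68% and 12.6%. Of 16896 tested probes for protein-coding genes 4.75% were called higher and 6.29% lower. Among probes detected on all arrays the shares lower were 13.6% for antisense, 10.3% for LINC, 6.77% for -DT and 4.41% for protein-coding probes. Differences between classes were not tested.

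**Figure D1:**
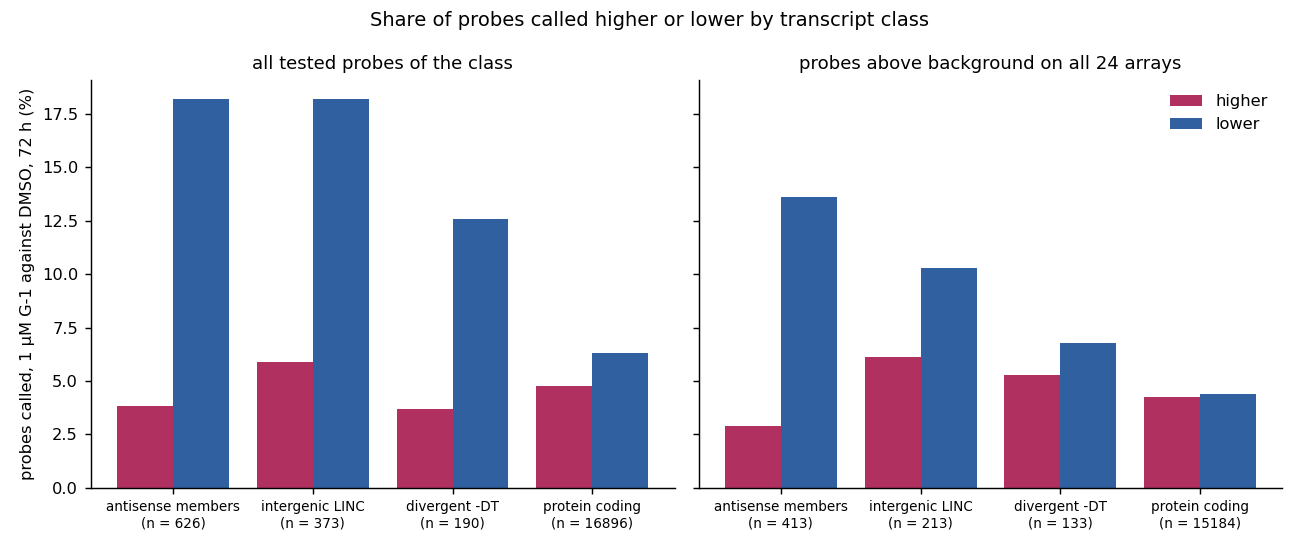
Share of tested probes called higher or lower at 1 µM G-1 for 72 h against DMSO 72 h (percent, y axis) for antisense members, LINC, -DT and protein-coding probes, for all tested probes and for those above background on all 24 arrays. Antisense and LINC probes were called lower in 18.2% each and protein-coding probes in 6.29%.

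LYPLAL1-AS1 showed the largest increase. It lies on chromosome 1 (219435158 to 219557324), and its sense gene LYPLAL1 encodes a lysophospholipase-like enzyme. The first of its 2 probes had signals of −0.07, −0.15, −0.52 and −0.52 at 1 µM 72 h and −4.02, −2.86, −3.25 and −5.01 in DMSO 72 h. In the other 4 groups it lay between −3.71 and −2.19, so the 1 µM 72 h arrays stood apart from all 20 others. Its change was 3.47 log2 (SE 0.34, adjusted p = 2.6e-08), and at 24 h it was 0.47 (adjusted p = 0.311). Only 1 of its DMSO 72 h arrays was above background, so the size at 72 h rests largely on signals below background. With normexp correction the 72 h change was 1.24 log2. The second probe was at least 6.59-fold higher at 72 h (adjusted p = 1.5e-08).

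CDK6-AS1, opposite the gene of a cyclin-dependent kinase of the G1 phase, was detected on all 24 arrays by both of its probes. The signals of the brighter were 1.37, 1.31, 1.01 and 0.92 at 1 µM 72 h, compared with −0.41, −0.72, −0.57 and −0.46 in DMSO 72 h. At 1 µM 24 h they were 0.90, 0.83, 0.43 and 0.16, between the 72 h signals and those of DMSO 24 h (−0.19 to 0.11). The changes of this probe were 1.70 log2 (SE 0.14, adjusted p = 3e-09) at 72 h and 0.64 (adjusted p = 0.00239) at 24 h, and the dimmer probe gave 1.84 and 0.63.

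ST3GAL6-AS1, opposite a sialyltransferase gene, had signals of 0.74, 0.63, 0.64 and 0.48 by the brighter of its 2 probes at 1 µM 72 h against −1.11, −0.95, −1.26 and −0.85 in DMSO 72 h. The 1 µM 24 h arrays (−1.30 to −0.66) overlapped DMSO 24 h (−1.73 to −0.95). This probe changed by 1.67 log2 (SE 0.15, adjusted p = 1.2e-08) at 72 h, and the other by 1.81. PRKCQ-AS1, named after the gene of protein kinase C theta, rose by 1.56 log2 (SE 0.096, adjusted p = 4.4e-11) and 1.30 by its probes, both detected on all arrays.

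For 5 of the 24 probes called higher, no DMSO 72 h array was above background, and the 5 that entered the set through 1 µM groups only (SPRY4-AS1, USP2-AS1, LURAP1L-AS1, 1 probe of LYPLAL1-AS1 and 1 of RASAL2-AS1) had to be higher there. USP2-AS1, named after a deubiquitinase gene, had signals of −1.42, −1.75, −1.58 and −2.01 at 1 µM 72 h and was at least 2.75-fold higher (adjusted p = 9e-05). LURAP1L-AS1 had −1.02, −1.08, −1.77 and −1.83 and was at least 3.59-fold higher (adjusted p = 0.00273). One IC50 72 h array of LURAP1L-AS1, replicate 2, gave 0.16 where the other 3 gave −5.66 to −3.57. IDI2-AS1 was at least 2.04-fold higher (adjusted p = 6.9e-06), with signals of −2.21, −2.24, −2.02 and −2.50. PAX8-AS1, named after a paired-box transcription factor gene, rose by 1.96 log2 (SE 0.38, adjusted p = 0.00015).

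Among the members that fell, BDNF-AS, opposite the gene of brain-derived neurotrophic factor, was detected on all 24 arrays. Its signals were −1.63, −1.86, −1.82 and −2.22 at 1 µM 72 h and 0.30, 0.54, 0.30 and 0.59 in DMSO 72 h. At 1 µM 24 h they were −0.21, −0.33, −0.22 and 0.25, overlapping DMSO 24 h (0.09 to 0.48). The change was −2.31 log2 (SE 0.15, adjusted p = 6.2e-11) at 72 h and −0.49 (adjusted p = 0.0158) at 24 h. VLDLR-AS1, opposite a lipoprotein receptor gene, was as widely detected, with −0.07, 0.05, −0.12 and 0.11 at 1 µM 72 h against 1.82, 1.84, 1.98 and 1.90 in DMSO 72 h. Its change was −1.89 log2 (SE 0.10, adjusted p = 6.9e-12).

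SOX9-AS1 lies beside SOX9, the gene of a transcription factor of glial cells. The brighter of its 2 probes gave 0.56, 0.60, 0.56 and 0.50 at 1 µM 72 h and 2.21, 2.20, 2.06 and 2.42 in DMSO 72 h. The 4 treated arrays fell below all 20 others, and the change was −1.67 log2 (SE 0.11, adjusted p = 1.4e-10). The dimmer probe was below background at 1 µM 72 h and at least 2.04-fold lower (adjusted p = 3.8e-06). AQP5-AS1, opposite an aquaporin gene, fell by 2.12 log2 (SE 0.13, adjusted p = 3.7e-11), with signals from −1.30 to −0.79 at 1 µM 72 h and from 0.89 to 1.21 in DMSO 72 h.

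NFIA-AS2 and KLF3-AS1 left the detectable range. NFIA-AS2, named after a gliogenic transcription factor gene, had −1.39, −1.33, −2.10 and −1.17 in DMSO 72 h and −4.13, −5.27, −4.66 and −4.69 at 1 µM 72 h, where no array was above background. It was at least 2.49-fold lower (adjusted p = 2.4e-09), and at 24 h it fell by 1.18 log2 (adjusted p = 0.00263). KLF3-AS1, named after a Krüppel-like repressor gene, gave −1.49, −1.51, −1.80 and −1.39 in DMSO 72 h and −4.98, −5.31, −3.08 and −4.13 at 1 µM, and was at least 2.40-fold lower (adjusted p = 4e-07). At the IC50 dose for 72 h the KLF3-AS1 signals were −2.04, −1.91, −2.41 and −2.34, below all DMSO 72 h arrays, but the difference was not called.

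Others below background on all 1 µM 72 h arrays were TMEM26-AS1 (at least 3.15-fold lower, adjusted p = 0.00102), SLC5A4-AS1 (at least 3.32-fold, adjusted p = 8.4e-05), WEE2-AS1 (at least 1.88-fold, adjusted p = 6.5e-11) and PROX1-AS1 (at least 1.75-fold, adjusted p = 3.1e-05). NALCN-AS1, named after the gene of a sodium leak channel, fell by 2.25 log2 (SE 0.25, adjusted p = 1.3e-07) and TCERG1L-AS1 by 2.24 (SE 0.20, adjusted p = 8.6e-09), each with 1 of 4 treated arrays above background. A second probe of TCERG1L-AS1 differed by −0.79 and was not called.

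**Figure D2:**
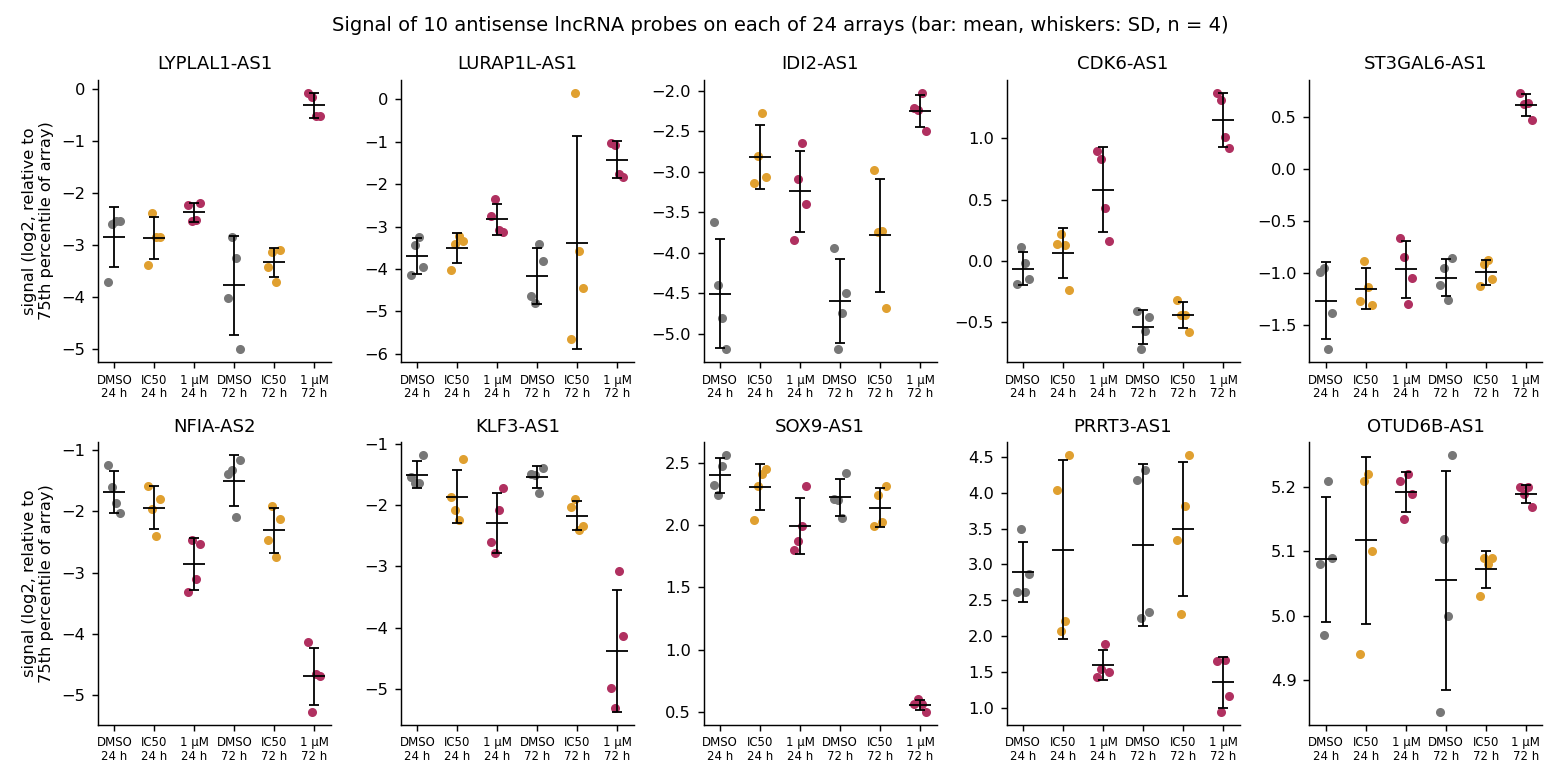
Signal on each of the 24 arrays (log2 relative to the 75th percentile of the array, y axis) of 10 antisense RNAs, by group, with group means and SD (n = 4). LYPLAL1-AS1 stood apart at 1 µM 72 h, CDK6-AS1 was intermediate at 1 µM 24 h, SOX9-AS1 fell at 1 µM 72 h, and PRRT3-AS1 split within groups according to slide.

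At 1 µM the changes of some members differed between durations. The difference between the 72 h and the 24 h change, in which a constant offset of slide 3 cancels, was called in 58 members. Of these 16 (2.56%) moved higher and 42 (6.71%) lower, against 2.47% and 3.77% of all tested probes. Among members detected on all 24 arrays 7 moved higher and 21 lower, against 1.71% and 2.67% of such probes overall. Of the members with an interaction call, 14 moving higher and 35 moving lower were also called in that direction at 72 h, and 9 were not. The difference was 3.00 log2 for the LYPLAL1-AS1 probe above (adjusted p = 8.9e-05), of which 1 DMSO 72 h array was above background, and −1.82 for BDNF-AS (SE 0.21, adjusted p = 2.2e-06).

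For AQP5-AS1 it was −1.72, with all arrays of the 4 groups above background. KLF3-AS1, NFIA-AS2 and TMEM26-AS1 were also called as moving lower with time, but no 1 µM 72 h array was above background, so the size of their difference was not measured. The TMEM26-AS1 call was lost in several fits with 1 array left out, among them that without 1 µM 72 h replicate 1. IGFBP7-AS1 was called too, by a probe that entered the set through DMSO 72 h only and was below background at 1 µM in both durations, so its call rests on the DMSO signal that admitted it. ARHGEF17-AS1 was called in the other direction (adjusted p = 0.0254). It was below background on every 1 µM 24 h array, so the size of that difference was not measured either. By contrast, the PSMD6-AS2 changes of 1.35 and 1.25 log2 differed by −0.10 (SE 0.25, adjusted p = 0.798). At both durations, 4 members were called higher and 10 lower.

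**Figure D3:**
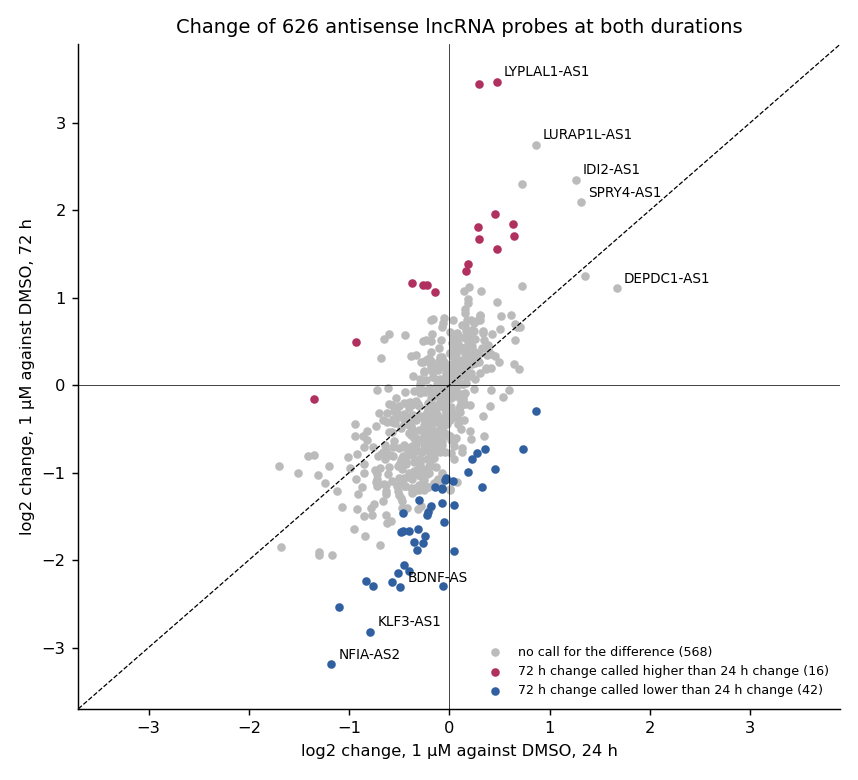
Change of each tested antisense probe at 1 µM G-1 for 24 h (x axis) against 72 h (y axis), both log2 relative to DMSO of the same duration, with the probes whose 2 changes differed (interaction calls) in colour and the line of equal change dashed. The 72 h changes spread further from 0 than the 24 h changes, with LYPLAL1-AS1 at 0.47 and 3.47 and BDNF-AS at −0.49 and −2.31. Points of probes below background on a side, such as NFIA-AS2 and KLF3-AS1 at 72 h, show measured signals and not the size of a change.

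The sense gene named in the symbol was found in the RefSeq table for 437 of the 442 antisense genes, and 362 had a tested probe. Gene positions were taken from RefSeq on GRCh38.p14. In 173 pairs the annotated starts lay within 1000 bases of each other, with the antisense start upstream of the sense start in 97 and inside the sense gene in 76. In 130 the bodies overlapped with starts further apart, in 11 they lay apart, and 122 could not be classified from the tables used here. Over the 314 pairs on opposite strands with both starts known, the median distance between starts was 712.5 bases, and 43 pairs had starts within 100 bases.

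The sequences around the start of 6 members are shown as examples of members that rose and fell in different arrangements with the sense gene, chosen after their values were seen. Each runs 5′ to 3′ on the strand of the antisense gene, from 250 bases before the start to 50 after it (RefSeq, GRCh38.p14), so the transcript begins after the first 250 bases. Capitals mark CCAAT boxes, the TATA word TATAAA and the GC box GGGCGG on either strand. The E-box CACGTG was searched too, and no 2 of these words hold one another. The first pair rose at 1 µM 72 h and start 90 bases inside CDK6 (chr7:92836233-92836532, + strand) and 50 bases upstream of ST3GAL6 (chr3:98732602-98732901, − strand).
CDK6-AS1: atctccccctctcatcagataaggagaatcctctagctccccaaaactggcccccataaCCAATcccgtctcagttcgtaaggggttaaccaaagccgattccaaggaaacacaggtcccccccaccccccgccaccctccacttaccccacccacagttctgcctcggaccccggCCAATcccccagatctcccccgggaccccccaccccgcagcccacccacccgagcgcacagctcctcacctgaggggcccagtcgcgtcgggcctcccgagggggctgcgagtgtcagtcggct
ST3GAL6-AS1: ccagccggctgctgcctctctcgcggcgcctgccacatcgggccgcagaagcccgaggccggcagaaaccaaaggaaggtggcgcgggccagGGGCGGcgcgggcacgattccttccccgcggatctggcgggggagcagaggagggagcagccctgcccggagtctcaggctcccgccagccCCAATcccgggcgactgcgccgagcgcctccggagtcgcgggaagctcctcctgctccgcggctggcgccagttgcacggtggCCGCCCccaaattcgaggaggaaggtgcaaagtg
SPRY4-AS1 (chr5:142325043-142325342, + strand) starts 1046 bases upstream of SPRY4, and LURAP1L-AS1 (chr9:12814340-12814639, − strand) 39369 bases inside LURAP1L. Both rose.
SPRY4-AS1: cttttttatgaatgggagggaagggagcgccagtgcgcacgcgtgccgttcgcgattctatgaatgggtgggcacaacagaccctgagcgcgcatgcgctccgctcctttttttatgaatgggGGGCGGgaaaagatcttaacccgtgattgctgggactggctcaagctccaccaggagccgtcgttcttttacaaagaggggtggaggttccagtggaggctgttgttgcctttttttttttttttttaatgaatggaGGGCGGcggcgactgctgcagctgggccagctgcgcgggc
LURAP1L-AS1: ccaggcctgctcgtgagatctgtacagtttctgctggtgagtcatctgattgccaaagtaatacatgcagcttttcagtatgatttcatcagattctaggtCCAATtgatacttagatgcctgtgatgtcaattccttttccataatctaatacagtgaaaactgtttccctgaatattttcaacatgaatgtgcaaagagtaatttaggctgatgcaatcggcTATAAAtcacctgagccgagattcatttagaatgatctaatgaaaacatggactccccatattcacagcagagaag
BDNF-AS (chr11:27506602-27506901, + strand) starts 152806 bases from the start of BDNF and runs through its body, and SOX9-AS1 (chr17:72115967-72116266, − strand) lies beside SOX9. Both fell.
BDNF-AS: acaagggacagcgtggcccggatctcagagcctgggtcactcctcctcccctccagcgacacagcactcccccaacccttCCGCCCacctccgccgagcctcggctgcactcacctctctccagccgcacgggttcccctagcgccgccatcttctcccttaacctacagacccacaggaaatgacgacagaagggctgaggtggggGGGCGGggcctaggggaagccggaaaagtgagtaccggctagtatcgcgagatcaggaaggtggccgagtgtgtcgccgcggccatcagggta
SOX9-AS1: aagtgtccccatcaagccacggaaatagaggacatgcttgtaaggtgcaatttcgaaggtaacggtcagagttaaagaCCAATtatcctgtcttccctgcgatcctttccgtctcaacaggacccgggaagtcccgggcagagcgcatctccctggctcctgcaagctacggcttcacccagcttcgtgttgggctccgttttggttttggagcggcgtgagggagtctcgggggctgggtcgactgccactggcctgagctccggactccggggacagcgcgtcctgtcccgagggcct

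The LURAP1L-AS1 window held 3 CG dinucleotides and a TATAAA word, while the other 5 held 16 to 33 CG and no TATAAA. Windows were available for 354 member genes (425 windows). Of these 30.4% held CCAAT, 7.06% TATAAA, 55.5% GGGCGG and 7.76% CACGTG, compared with 34.6%, 11.5%, 45.0% and 7.26% of all 35116 windows in the table. The median number of CG was 23 in the member windows, 22 in those of their sense genes and 14 in all. Windows of genes called lower at 1 µM 72 h held CCAAT in 29.2% and GGGCGG in 52.1%, and the 16 windows of genes called higher in 31.2% each.

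At 1 µM for 72 h, 15 antisense genes of the 362 pairs were called higher and 68 lower, and 18 and 43 of the sense genes. Of all tested probes 5.08% were called higher and 8.55% lower, and of protein-coding probes 4.75% and 6.29%. Whether pairs shared a direction more often than these counts alone would give was not tested. Each antisense gene is taken here at its brightest probe. In 21 pairs both were called in the same direction, 20 lower and 1 higher. In 5 they were called in opposite directions, and in 57 only the antisense gene was called. Without the fold limit, at adjusted p under 0.05 for both, 106 pairs moved in the same direction, 73 lower and 33 higher. In 65 they moved in opposite directions, 52 of them with the antisense gene lower. Across the pairs, which are not independent replicates, the changes correlated with r = 0.25 and rho = 0.24 as a description. For starts within 1000 bases r was 0.35 and rho 0.29. For overlapping bodies with starts further apart they were 0.04 and 0.14, and for unclassified pairs 0.22 and 0.24.

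**Figure D4:**
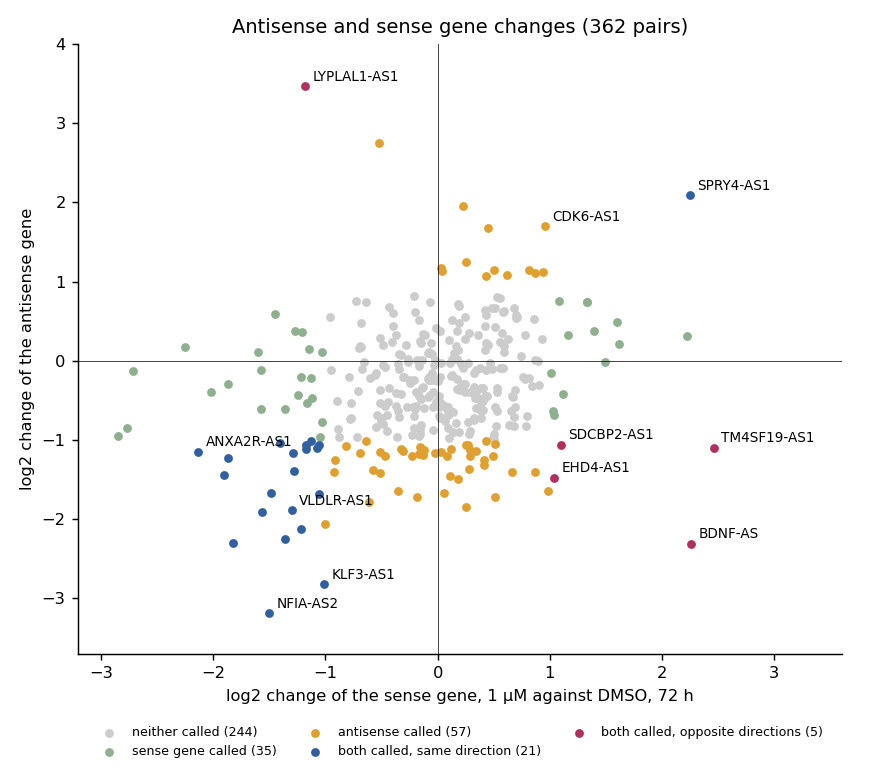
Change of the sense gene (x axis) against that of the antisense RNA (y axis) at 1 µM G-1 for 72 h, log2 relative to DMSO 72 h, for 362 pairs, with the pairs called in both marked. In 20 pairs both were called lower over 2-fold, and 5 pairs were called in opposite directions. In 1, SPRY4, both were called higher, with an antisense probe that entered the set through 1 µM groups only.

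The pair with opposite calls and the steepest fall of the antisense RNA was BDNF. While BDNF-AS fell by 2.31 log2, BDNF rose by 2.26 (SE 0.20, adjusted p = 4.8e-09), from −1.39, −1.19, −0.67 and −0.62 in DMSO 72 h to 1.01, 1.25, 1.55 and 1.38 at 1 µM 72 h. At 24 h BDNF had already risen by 0.86 (adjusted p = 0.00308). The log2 ratio of antisense to sense signal changed by −4.58 at 72 h (two-sided exact permutation test, 4 against 4 arrays, p = 0.0286, the smallest p this design allows).

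TM4SF19-AS1 fell by 1.1 log2 (SE 0.25, adjusted p = 0.0006) while TM4SF19, which encodes a 4-transmembrane family protein, rose by 2.46 (SE 0.17, adjusted p = 1.4e-10). The antisense signals went from −1.18, −2.24, −1.36 and −0.99 to −2.68, −2.67, −2.52 and −2.30, and its call was lost without DMSO 72 h replicate 4. EHD4-AS1 fell by 1.48 (SE 0.13, adjusted p = 4.3e-09) and EHD4, an endocytic recycling gene, rose by 1.04 (SE 0.097, adjusted p = 1.3e-08). For both genes of that pair the DMSO 72 h and 1 µM 72 h arrays did not overlap, with EHD4-AS1 at 0.03 to 0.31 in DMSO 72 h and at −1.59 to −1.11 at 1 µM.

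SDCBP2-AS1 fell by 1.06 (SE 0.20, adjusted p = 0.00012) and SDCBP2, a syntenin gene, rose by 1.1 (SE 0.29, adjusted p = 0.00245). The SDCBP2 probe was above background on 2 of 4 DMSO 72 h arrays, SDCBP2-AS1 differed between slides 1 and 2, a second SDCBP2-AS1 probe differed by −0.37 and was not called, and the pair of calls was lost without DMSO 72 h replicate 1 or 1 µM 72 h replicate 1. LYPLAL1-AS1 was the reverse case, with an increase of 3.47 beside a decrease of LYPLAL1 by 1.18 log2 (SE 0.13, adjusted p = 1.5e-07). Only 1 DMSO 72 h array of that antisense probe was above background. LYPLAL1 signals went from 2.11, 2.26, 2.06 and 2.38 to 1.17, 0.79, 1.08 and 1.02. For each of these 4 pairs the exact permutation p of the ratio was also 0.0286, the smallest possible. The 5 opposite pairs, BDNF included, were chosen by opposite calls on the same arrays. A small p of the ratio was thus built into their selection and adds no support. With normexp correction 2 of the 5 opposite pairs were left.

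SPRY4 and SPRY4-AS1 rose together. The SPRY4-AS1 probe entered the set through 1 µM groups only, so its rise was built into its selection. SPRY4, an inhibitor of receptor tyrosine kinase signalling, went from −0.84, −0.99, −0.76 and −0.85 to 1.08, 1.49, 1.72 and 1.29 at 72 h, an increase of 2.25 log2 (SE 0.21, adjusted p = 9.5e-09). SPRY4-AS1 went from −3.19, −3.47, −2.54 and −4.88, with 1 array above background, to −1.75, −1.41, −1.40 and −1.17, an increase of 2.09 (SE 0.37, adjusted p = 5.4e-05). The ratio differed by −0.16 (exact permutation p = 0.771).

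Both members fell in the pairs of VLDLR (VLDLR −1.30, VLDLR-AS1 −1.89), TMEM26 (−1.82), NALCN (−1.36), PRRT3 (−1.56) and KLF3 (−1.01 log2), where the value is that of the sense gene unless named otherwise. AQP5 and NFIA were also called lower, but their probes were above background on none of the 1 µM 72 h arrays, so no size is given. The ratio was not measurable for AQP5, NFIA, KLF3 and TMEM26, where at least 1 partner was below background on every 1 µM 72 h array. VLDLR-AS1 fell further than VLDLR, with a ratio change of −0.59 (exact permutation p = 0.0286). In the NALCN and PRRT3 pairs the ratio changed by −0.89 and −0.35, with exact permutation p of 0.114 and 0.543, and 1 of 4 treated arrays of NALCN-AS1 was above background. ANXA2R-AS1 fell less (−1.15) than ANXA2R (−2.13), a ratio change of 0.97 (exact permutation p = 0.0286).

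Other large antisense changes had a sense gene that was not called. CDK6 rose by 0.96 log2 (adjusted p = 2.6e-06) and ST3GAL6 by 0.45 (adjusted p = 0.00317), less than their antisense RNAs, with ratio changes of 0.74 and 1.22. SOX9 differed by 0.06 (adjusted p = 0.777) while SOX9-AS1 fell by 1.67. PSMD6 differed by 0.25 and its ratio to PSMD6-AS2 by 0.99. The exact permutation p was 0.0286 for each of these 4 ratios. The ratio was computed for all 362 pairs. In 192 it reached this smallest p, which is 0.0539 after Benjamini-Hochberg adjustment over the pairs, so over all pairs none passes on the ratio alone. Over the 241 pairs with both probes above background on all 8 arrays, a limit added after the values were seen, 144 reached it and the adjusted value was 0.0478.

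**Figure D5:**
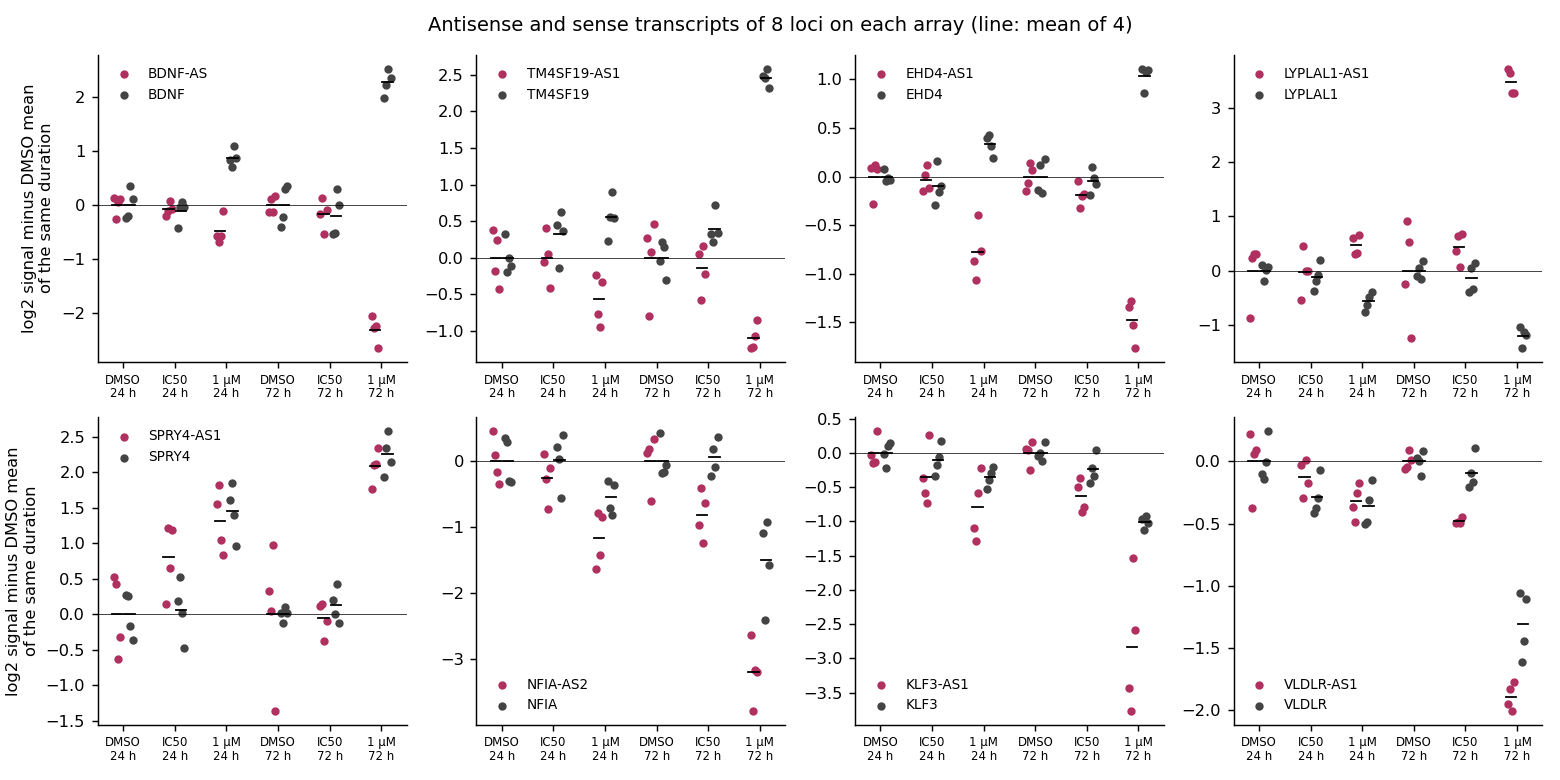
Signals of antisense RNA and sense gene on the 24 arrays of the 6 groups (x axis), each as the log2 difference from the DMSO mean of the same duration (y axis), for 8 pairs. BDNF, TM4SF19, EHD4 and LYPLAL1 separate from their antisense RNAs at 72 h, SPRY4 moves with its antisense RNA, and VLDLR falls less than its own. NFIA-AS2, NFIA and KLF3-AS1 are below background on all 1 µM 72 h arrays, where the points show measured signals and not the size of a change.

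Several probes per gene were tested for 130 antisense genes. All probes were called higher in 5 genes and lower in 9, some but not all were called in 23, and no gene had calls in both directions. The median spread between the probes of a gene was 0.36 log2 at 1 µM 72 h, and 15 genes exceeded 1 log2. FGD5-AS1, named after an endothelial guanine nucleotide exchange factor gene, had 1 probe at −2.30 (adjusted p = 2e-09) and 4 others between −0.40 and 0.05, all detected on every array. RUSC1-AS1 had 2 probes that were at least 1.26-fold and 1.49-fold lower and another that was higher by 0.80 log2, all with adjusted p under 0.05. PTPRG-AS1 ranged from −0.33 to 1.08 over 4 probes. Of the SRP54-AS1 probes 1 was at least 1.07-fold lower and 1 higher by 0.54 log2. In these 4 genes a single value per gene would depend on the probe taken. KMT2E-AS1 had a probe at −1.19 that rested on DMSO 72 h replicate 3, whose signal was 2.32 where all other arrays lay between −1.86 and −1.06. Without that array the difference was −0.32.

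Some members followed the slide within groups. PRRT3-AS1, detected on all 24 arrays, gave 2.07 to 2.87 on slide 1 and 3.34 to 4.52 on slide 2, with DMSO and IC50 arrays on each, and 0.95 to 1.90 on slide 3. Its change at 1 µM 72 h of −1.91 log2 (SE 0.54, adjusted p = 0.00437) thus stands beside a difference of 1.67 between slides 1 and 2. GALNT13-AS1 (1.51), ABCC5-AS1 (1.11) and SLC5A4-AS1 (−1.09 log2, slide 2 minus slide 1) were alike. In all, 24 members (3.83%) had slides 1 and 2 that did not overlap, against 3.33% of all tested probes. Of these 24, 12 were called at 1 µM, against 144 of the 626 tested members. All 5 members whose slides 1 and 2 differed by over 1 log2 were called at 1 µM. Besides those named, the 12 included TMEM132D-AS1 (−1.94 at 72 h), ICA1-AS1, ANO3-AS1, LOXL2-AS1, USP6NL-AS1 and MMP25-AS1.

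From a list of 76 antisense RNAs with published study, chosen with earlier results known, 51 were tested. At 1 µM 72 h 1 was called higher and 14 lower, beside 5.08% and 8.55% of all tested probes and 3.83% and 18.2% of the members. The median was −0.44 log2. FOXD3-AS1 fell by 1.72 (SE 0.21, adjusted p = 6.3e-07), ZNF503-AS2 by 1.67 (SE 0.12, adjusted p = 2.3e-10), SOX21-AS1 by 1.26 (SE 0.13, adjusted p = 6.5e-08) and TBX2-AS1 by 1.08 (SE 0.095, adjusted p = 5.6e-09). HOXB-AS3 and LEF1-AS1 fell by 1.08 and 1.01. The HOXB-AS3 call was lost without DMSO 72 h replicate 4, and the LEF1-AS1 call without 1 µM 72 h replicate 2 or 3.

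ST7-AS1 fell by 1.41 log2 (adjusted p = 2.9e-10), DICER1-AS1 by 1.20 (adjusted p = 0.0003), HAS2-AS1, named after a hyaluronan synthase gene, by 1.09 (adjusted p = 5.6e-08) and IDH1-AS1 by 1.05 (adjusted p = 2.8e-09). Under the fold limit but with adjusted p under 0.05, DDX11-AS1 differed by 0.79, PRKAG2-AS1 by 0.74, FOXD2-AS1 by 0.67 and HOXD-AS2 by 0.44, whereas PCBP1-AS1 differed by −0.98, GAS6-AS1 by −0.87 and OIP5-AS1 by −0.45. ZNF667-AS1 (−0.02), NR2F1-AS1 (0.11), ASB16-AS1 (0.11) and HIF1A-AS1 (0.19) did not pass. Each value is that of the brightest probe. Probes ranged from −1.0 to 0.28 for NR2F1-AS1, −0.53 to 0.19 for HIF1A-AS1, −0.45 to 0.25 for OIP5-AS1 and −0.98 to −0.15 for PCBP1-AS1. EGFR-AS1 differed by −0.59 and BACE1-AS, above background on no 1 µM array, was not called (adjusted p = 0.167).

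The 10 probes of highest signal came from OTUD6B-AS1, PITPNA-AS1, FGD5-AS1, EPB41L4A-AS1, DLGAP1-AS1, MAPKAPK5-AS1, PPP1R14B-AS1, ZNF232-AS1 and PRR34-AS1. Only PPP1R14B-AS1 was called at 72 h, from 3.86 to 4.08 in DMSO 72 h to 4.93 to 5.27, an increase of 1.12 (SE 0.13, adjusted p = 2e-07). The others changed by −0.60 (DLGAP1-AS1) to 0.62 (ZNF232-AS1). The 2 OTUD6B-AS1 probes differed by 0.14 and −0.11.

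Genes whose products remove or terminate antisense transcripts were compared from lists written with earlier results known. Of 26 tested genes of nuclear RNA decay (the exosome and its cofactors), 19 were higher and 2 lower at adjusted p under 0.05 at 1 µM 72 h, and 1 was over 2-fold. At that threshold 32.6% of all tested probes were higher and 31.8% lower. The median was 0.38 log2, against close to 0 over all tested probes. The exosome core genes EXOSC5 (0.96), EXOSC8 (0.88) and EXOSC3 (0.86) were higher, and MTREX, its helicase, by 0.33. TENT4B, a poly(A) polymerase that tags RNA for decay, was the 1 gene over 2-fold, at 1.86 (SE 0.34, adjusted p = 7.0e-05). Its probe was above background on only 11 of 24 arrays. NCBP2 of the nuclear cap-binding complex was lower by −0.47.

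Of 22 tested genes of the Integrator and cleavage complexes 10 were higher and 2 lower, with a median of 0.22 and CSTF2 at 0.99 (SE 0.061, adjusted p = 4.4e-11). Of 13 tested genes of nonsense-mediated and cytoplasmic decay 4 were higher and 3 lower (median 0.07), and of 13 of double-stranded RNA sensing 4 and 3 (median −0.01), to be read against the same 32.6% and 31.8% of all tested probes, with AGO2 at 1.16 and DHX58 at −0.88. A reference list of 14 mitotic genes had a median of 1.04 with 8 called higher over 2-fold. Other cell-type lists had medians of −0.32 (astroglial and glioma, 7 tested), −0.89 (neuronal, 5), −1.01 (oligodendrocyte, 3) and −1.23 (endothelial, 2), and the 1 tested microglial gene stood at 0.49. The part of these values in the antisense changes was not tested.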

How the data were processed

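U251 cells in 6 groups of 4 samples were measured on one-colour Agilent arrays. The authors deposited, per array, the processed signal intensity that Feature Extraction wrote for each spot, with flags for spots above background, saturated or outlying; file headers name version 12.1.1.1 and the labels 10.7.3.1. A table of log2 values, deposited for the same probes, matched log2 intensities scaled to the array's 75th percentile and centred on the probe median (median difference 0.0014 log2), and served as an alternative. No per-spot read depth exists for arrays, and the number of arrays limits the precision.

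Spots marked as outliers were left out, replicate spots of a probe were averaged as log2 intensities, and the array's 75th percentile was then subtracted. Tests covered the 22970 probes detected above background by every array of 1 or more groups, with limma 3.58.1 in R 4.3.3, in 1 model of 6 group means with Benjamini-Hochberg adjustment. Scripts were tested on simulated data. Symbols, positions and promoter sequences came from RefSeq (GRCh38.p14). Genes with several probes are given per probe, and a pair uses the probe of highest mean signal.

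The members, gene lists and tests were chosen with earlier results of these data known. Named genes are the members called at IC50, the 12 furthest in each direction at 1 µM per duration, the 8 largest interactions, the 10 of highest signal, opposite pairs, the 8 same-direction pairs with the largest antisense change, and the studied list; others are named for probe disagreement, slide or pair ratios after their values were seen, and 1 member that the rule names is not reported here by name. Replicate numbers were checked for pairing by the correlation of deviations from group means. They pair DMSO 24 h with 1 µM 24 h (r = 0.166 to 0.281), whereas for DMSO 72 h and 1 µM 72 h r was 0.024 to 0.101. Alternatives covered normalization, background correction, filters, the deposited table, the samples fitted, replicate and slide blocks, the t-test of the methods and leaving out each array.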

Additional observations from a re-analysis of the deposited data

Results flagged for a closer look

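In 19 of 312 groups of 4 arrays of the 52 named probes (6.09%), 1 array lay far from the other 3, where chance gives about 1 in 20. Low or high signals at 1 µM were PSMD6-AS2 at −1.28 (24 h, replicate 4), IGFBP7-AS1 at −2.53 (24 h, replicate 1), EPB41L4A-AS1 at 4.86 (24 h, replicate 3), MAPKAPK5-AS1 at 4.48 (24 h, replicate 4), PAX8-AS1 at 0.17 (72 h, replicate 3), TMEM26-AS1 at −4.96 (72 h, replicate 1) and OTUD6B-AS1 at 4.38 (72 h, replicate 4). At the IC50 dose for 72 h they were HORMAD2-AS1 at −4.15, GRTP1-AS1 at −2.30, TMEM132D-AS1 at −1.62 and MAPKAPK5-AS1 at 4.41 (all replicate 2), CADM1-AS1 at −2.26 (replicate 4), and TCERG1L-AS1 at −0.43 and OTUD6B-AS1 at 5.03 (replicate 1). In DMSO 24 h they were SLC5A4-AS1 at −2.36, BDNF-AS at 0.09, FGD5-AS1 at 4.83 and EHD4-AS1 at −0.26 (replicate 2) and LYPLAL1-AS1 at −3.71 (replicate 1). DMSO 24 h replicate 2 was the only array of its group on slide 2, as SLC5A4-AS1, which follows the slide, shows. Likewise, IC50 72 h replicate 2 was the only array of its group on slide 1. TMEM132D-AS1 follows the slide too, and HORMAD2-AS1 differed by 0.98 log2 (slide 2 minus slide 1), though its slides overlapped.

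For 22 named probes the change at 1 µM differed between 72 h and 24 h by the interaction term. The differences above 0 were LYPLAL1-AS1 3.00 and 3.14, ST3GAL6-AS1 1.52 and 1.36, PAX8-AS1 1.51, CDK6-AS1 1.21 and 1.05, ARHGEF17-AS1 1.20 and PRKCQ-AS1 1.09 log2. Those below 0 were TMEM26-AS1 −2.24, KLF3-AS1 −2.03, NFIA-AS2 −2.01, IGFBP7-AS1 −1.95, BDNF-AS −1.82, AQP5-AS1 −1.72, NALCN-AS1 −1.67, WEE2-AS1 −1.64, PROX1-AS1 −1.61, VLDLR-AS1 −1.57, FGD5-AS1 −1.54, SOX9-AS1 −1.44 and TCERG1L-AS1 −1.40 log2. Several of these probes were below background on every array of a group: NFIA-AS2, KLF3-AS1, TMEM26-AS1, WEE2-AS1, PROX1-AS1 and that probe of SOX9-AS1 at 1 µM 72 h, IGFBP7-AS1 at 1 µM in both durations, ARHGEF17-AS1 at 1 µM 24 h and the LYPLAL1-AS1 probe at 3.14 in DMSO 72 h. The size of their difference is not measured on both sides.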

How the results depend on the processing

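The counts of members called at 1 µM were 20 at 24 h, 138 at 72 h and 58 for the interaction. They became 1, 30 and 10 with normexp correction, 3, 68 and 28 on probes detected on all 24 arrays, and 163, 420 and 199 without the fold limit, with the t-test of the methods after adjustment giving 10 at 24 h. Leaving out 1 array gave 21 to 26, 133 to 144 and 52 to 67. With the replicate block they were 20, 138 and 60, and 17 at 24 h with the block on the paired groups alone, an alternative chosen after seeing the data. No count moved by over 1.5 times under the block. For comparison, the main fit called 608, 3131 and 1434 of all 22970 tested probes. These became 71, 1033 and 431 with normexp, and 6810, 14780 and 7090 without the fold limit. Of the 19133 probes detected on all arrays 194, 1849 and 840 were called. The adjusted t-test called 368 of all tested probes at 24 h. At IC50 24 h the single call became 0 with quantile normalization, normexp, no filter, probes detected on all arrays, only the groups compared, an intensity trend, a slide block and the adjusted t-test, 3 with the unadjusted t-test, and 0 to 1 without 1 array. The unadjusted t-test called 20 of all tested probes at IC50 24 h. At IC50 72 h 6 members were called without the fold limit, against 155 of all tested probes, and 0 to 0 without 1 array. For DMSO 72 h against 24 h, the unadjusted t-test called 1 member, against 57 of all tested probes. Without the fold limit 20 members were called, against 647 of all tested probes, and 0 to 2 without 1 array. The 5 opposite pairs became 3 with quantile normalization, 2 with normexp, 2 on probes detected on all arrays and 3 to 5 without 1 array. The 21 pairs with the same direction became 3 with normexp, 5 on probes detected on all arrays and 16 to 22 without 1 array. The smallest adjusted p of the antisense to sense ratio, 0.0539 over all pairs, was 0.0478 over the pairs with both probes above background on all 8 arrays, also chosen after seeing the data. The cause of these shifts was not tested, except that fewer probes are tested under the stricter filter. Centring on the 50th percentile moved the median of all probes at 1 µM 72 h by −0.08 log2. It gave 23 members higher and 136 lower, against 4.26% and 10.1% of all tested probes. No called value among 109 named values reversed. With normexp correction, however, 46 of the 109 were weaker, 62 the same and 1 stronger. The 72 h calls lost there, with changes under 2-fold, included NFIA-AS2, KLF3-AS1, SPRY4-AS1, USP2-AS1, LURAP1L-AS1 and PAX8-AS1. Of 67 called named values, 58 kept the call in every fit without 1 array. A slide block could not be fitted for 1 µM against DMSO, since each lay on slides of its own, and was not run.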
